A study of Homo sapiens
Mus musculus and Homo sapiens with 21 samples.

Results

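The genes described here are 10 human transcripts that cells of many types make more of when oxygen is short: CA9, PDK1, PFKFB4, ANGPTL4, VEGFA, ADM, NDRG1, BNIP3, ANKRD37 and EGLN3. They were taken by symbol from the human expression table, where all 10 were found among 34058 human genes. With 14557 human genes above the limit for testing, which was a level of at least 1 in at least 3 of the 13 libraries that held cancer cells, the 10 were all tested. CA9 reached that limit only through subcutaneous tumours and 1 hindbrain metastasis library, so it is set apart in the counts.

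The cancer cells were H2030-BrM3, a brain-seeking derivative of H2030, a human lung adenocarcinoma line. The study followed these cells in different surroundings: in culture, under the skin and in the brain. Libraries labelled 2D were monolayer cultures left undisturbed for at least 3 days (3 libraries), and those labelled SQ were subcutaneous tumours grown from cells injected with Matrigel (4 libraries). FBMet and HBMet were forebrain and hindbrain carrying tumours (3 libraries each), from cells injected into the heart. FB and HB were forebrain and hindbrain without tumours (4 libraries each), and served as the background for human reads. All mice were athymic nu/nu, a strain that lacks T cells, and those given cancer cells were injected at 5 to 6 weeks of age. All human RNA came from 1 derived line. Tumours were dissected with the stroma around them, so reads assigned to human stand for the cancer cells and those assigned to mouse for the host. The labels do not say which libraries came from separate cultures or animals, so p-values measure only the spread between these libraries, which may be technical.

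Cells sense oxygen through prolyl hydroxylases of the EGLN family, which use oxygen to modify the alpha subunits of the hypoxia-inducible factors HIF1A and EPAS1. The modified subunits are bound by VHL and degraded. When oxygen is short the subunits persist, pair with ARNT and bind the core letters ACGTG or GCGTG beside target genes. This control acts on protein stability, and HIF protein was not measured here. Known targets shift glucose carbon away from mitochondria (PDK1, PFKFB4), handle acid (CA9), signal to vessels (VEGFA, ANGPTL4, ADM), prompt removal of mitochondria (BNIP3) or dampen the response itself (EGLN3). In solid tumours such targets are often found beside poorly supplied regions.

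The core letters ACGTG were looked for on either strand in the 250 bases before each gene's start, and stretches of the windows that held them are shown here because they bring together members with different jobs. ANGPTL4 is shown whole, CA9 and PDK1 as the 30 bases next to the start, and ANKRD37 and BNIP3 as 241 and 206 bases of the window. Capitals mark ACGTG, which reads CACGT where it lies on the other strand, and CACGTG, which holds it on both. Starts are those of the canonical GENCODE 44 transcripts and letters are from hg38 (GRCh38), printed 5′ to 3′ along the gene.
CA9, chr9:35673898-35673927, plus strand: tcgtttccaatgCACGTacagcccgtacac
PDK1, chr2:172556060-172556089, plus strand: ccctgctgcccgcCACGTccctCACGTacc
ANGPTL4, chr19:8363905-8364154, plus strand: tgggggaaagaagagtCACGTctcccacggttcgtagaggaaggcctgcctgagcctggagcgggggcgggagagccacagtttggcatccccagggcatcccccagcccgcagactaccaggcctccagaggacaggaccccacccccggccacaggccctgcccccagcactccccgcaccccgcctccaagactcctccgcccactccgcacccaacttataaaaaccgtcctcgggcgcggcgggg
ANKRD37, chr4:185396591-185396831, plus strand: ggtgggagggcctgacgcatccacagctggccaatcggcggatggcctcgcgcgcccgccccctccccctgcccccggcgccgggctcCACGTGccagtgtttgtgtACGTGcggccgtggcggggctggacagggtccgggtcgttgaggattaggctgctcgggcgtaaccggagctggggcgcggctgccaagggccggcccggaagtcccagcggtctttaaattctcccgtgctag
BNIP3, chr10:131981968-131982173, minus strand: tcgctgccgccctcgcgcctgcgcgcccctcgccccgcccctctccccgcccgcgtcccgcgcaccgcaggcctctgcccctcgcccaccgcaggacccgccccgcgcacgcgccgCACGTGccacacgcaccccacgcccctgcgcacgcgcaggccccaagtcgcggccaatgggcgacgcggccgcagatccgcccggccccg
The first letter of the match lay 18 bases before the start in CA9 and 17 and 8 bases before it in PDK1. In ANGPTL4 it lay 234 bases before the start, in BNIP3 134, and in ANKRD37 162 and 143. The letters ACGTG were in the windows of these 5 of the 10 members and in 20.5% of 20033 protein-coding windows of the same length. GCGTG was in 5 of 10 members and in 40.3% of windows, and either core in 9 of 10 members and in 51.3%, with EGLN3 the member without one. The member windows held 60.4 to 81.6% G and C, against a median of 63.2% over all windows. A match is a description of the letters, not a bound site.

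Levels are RPKM (read counts scaled by transcript length and mapped reads) rescaled to a sum of 1000000 in each library, so they are per length and can be set beside each other between genes. Human reads numbered 29579879 to 49599168 in 2D libraries, 27253282 to 48152857 in SQ, and 3579907 to 6897852 in the 6 metastasis libraries, where 4.83 to 7.52% of reads were human. Depth and group therefore cannot be told apart for the metastases, and low genes rest on few reads there. Tumour-free brain gave 3325 to 5753 human reads in a library. At those rates, 0.306% of the human reads of the metastases would be expected from mouse RNA, and 0.0644% for NDRG1, 0.0854% for ANGPTL4 and 0.335% for VEGFA. The other 7 members had no read in the 8 tumour-free libraries, which with a limit of 3 reads allows up to 42.1% of the metastasis reads of CA9, 17.5% of EGLN3, 8.94% of ADM and 2.89% or less of the others. Of 8 epithelial markers, KRT8, KRT18, EPCAM and CDH1 were present in every group that held cancer cells, whereas KRT19 and the lung lineage factor NKX2-1 were at or near 0 in all. NAPSA, which was also tested, had 16 reads in the 6 metastasis libraries, and SFTPB was not in the human table. Of 5 epithelial markers tested, 5 were higher in SQ than in 2D (median log2 1.59) and 4 were higher in the metastases than in 2D (1.82). Between the tumour sites, 3 were higher and 2 lower in the metastases than in SQ (1.05). The shares higher over all genes were 21.5%, 21.9% and 31.2% in these comparisons, and 18.8% were lower in the last. CDH1 was at 0.901 in 2D, 12.7 in SQ and 67.6 in the metastases, and does not stand for the 2 markers that were lower there than in SQ. The part of these epithelial changes in the members' changes was not tested. Of 8 markers of brain cells 6 were in the human table, and SNAP25 (neurons) was at 4.20 in the metastases and 0.569 in SQ and MBP at 169 and 92.1, with 65.1% and 0.851% of their reads expected from mouse RNA, while GFAP, SYT1 and CX3CR1 were under 0.75 in both metastasis groups. With the human reads expected from mouse RNA subtracted, 8 members were called lower in the metastases than in SQ. The subtraction took reads from the metastasis libraries only, and none from the 7 members without a read in tumour-free brain. These calls could therefore hardly change, and the subtraction does not test them. SQ replicate 3 stood apart in its stroma, with mouse Krt14, a skin keratin, at 0 against 383 to 487 in the other SQ libraries. It also had the highest levels of ANKRD37 and ANGPTL4, and results that rest on it are given with and without it.

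**Figure D1:**
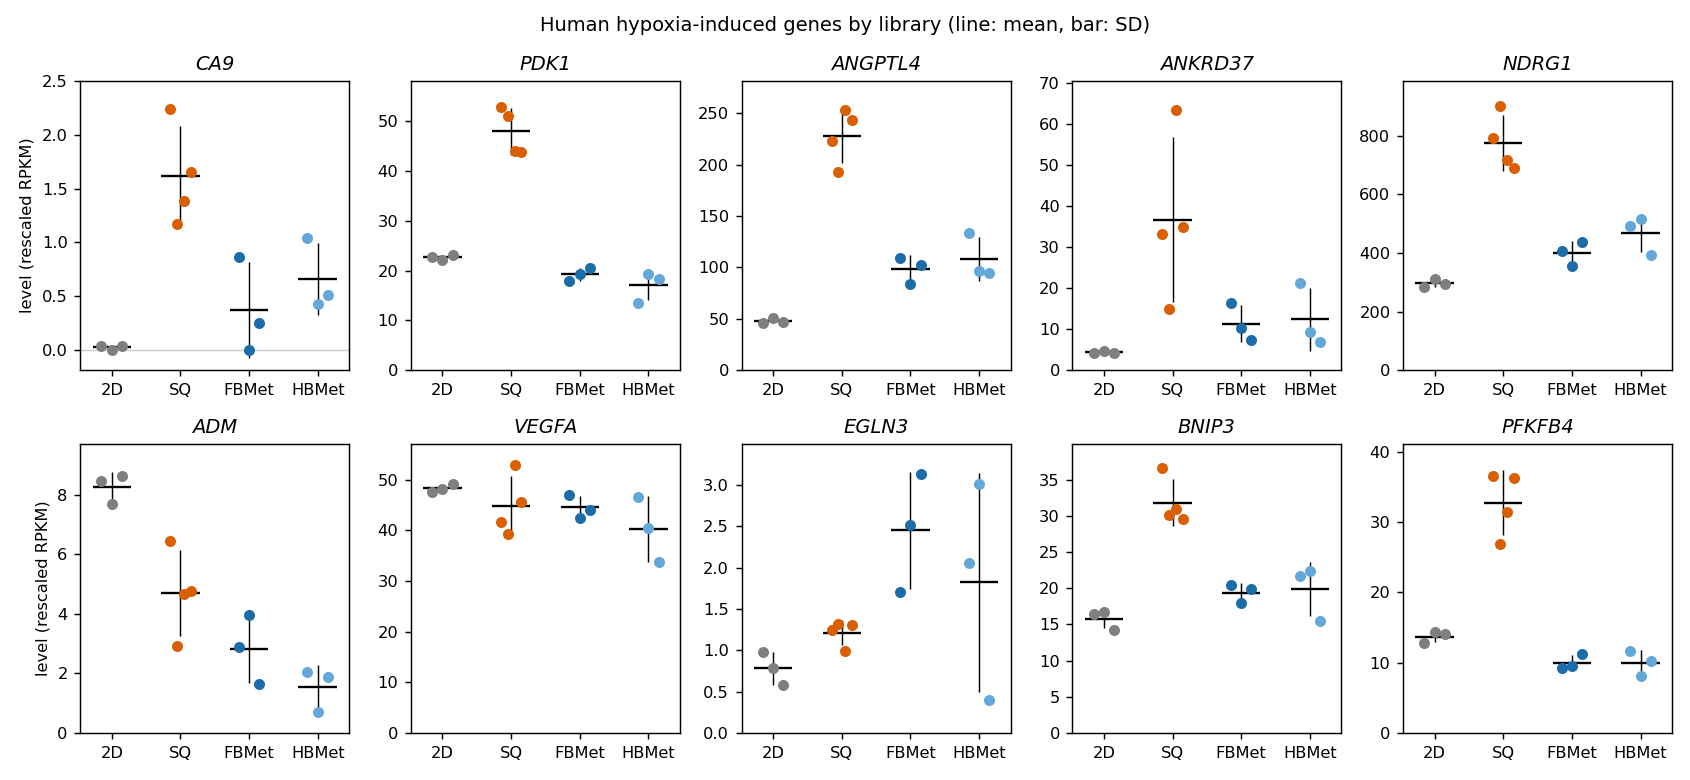
Level of each gene (rescaled RPKM, linear axes that differ between panels) in every 2D, SQ, FBMet and HBMet library. Points are libraries, horizontal lines are means and vertical lines SD; 7 genes peak in SQ, ADM and VEGFA have their highest mean in 2D and EGLN3 in FBMet.

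Most of the 10 genes were highest in subcutaneous tumours. Compared with the metastases, SQ tumours had higher levels of 8 members, and 7 of 9 when CA9 is set apart: PDK1, PFKFB4, ANGPTL4, ADM, NDRG1, BNIP3 and ANKRD37. No member was called higher in the metastases, and VEGFA and EGLN3 did not pass the test. Among all human genes tested, 50.0% passed in this comparison (18.8% lower and 31.2% higher in the metastases). Of the genes called, 62.4% were higher in the metastases, and 48.2 to 50.9% with 3 other scalings. The median change from SQ to metastases was -0.86 on the log2 scale over the 10 and -0.88 without CA9, beside 0.055 over all genes tested. Folds and log2 changes are of level plus 1, which understates the change of low genes, and adjusted p-values are from limma over all genes tested. In bulk tissue fewer cells that make a transcript and less of it per cell cannot be told apart.

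Compared with the monolayer, SQ tumours had higher levels of 7 members (6 of 9 without CA9) and a lower level of ADM. Over all human genes, 52.4% passed in this comparison (21.5% higher and 30.9% lower in SQ), so that 41.1% of the called genes were higher, or 55.8% with levels scaled to nuclear genes. The metastases differed from the monolayer in both directions: 5 members were higher (ANGPTL4, ANKRD37, NDRG1, EGLN3, BNIP3) and 3 were lower (PDK1, ADM, PFKFB4), where 42.9% of all genes passed (21.9% higher and 21.0% lower). The medians over the 10 were 1.12 for SQ against 2D and 0.41 for metastases against 2D, beside -0.054 and 0.007 over all genes. Without CA9 the medians of the members were 1.04 and 0.29. These 3 comparisons share libraries with one another, so their values are given side by side and are not independent.

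**Figure D2:**
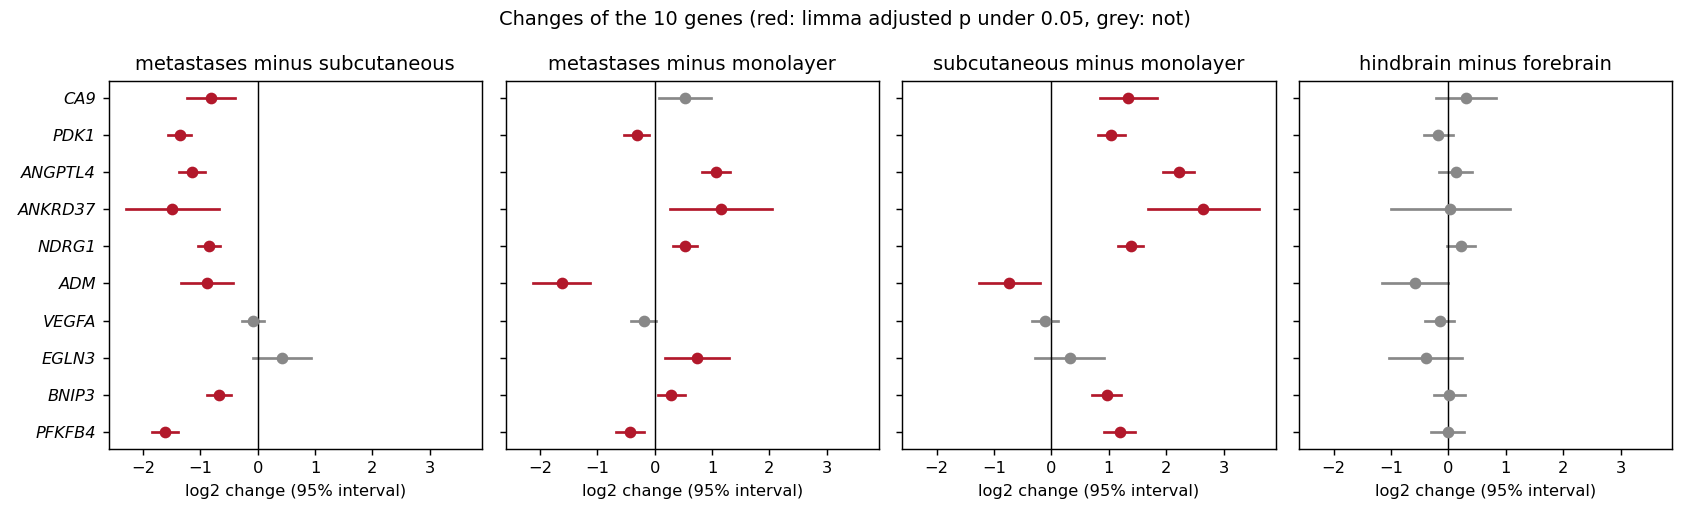
Log2 change of each gene (horizontal axis, level plus 1) in 4 comparisons, with points for the limma estimate, bars for its 95% interval and red for an adjusted p under 0.05. PFKFB4, PDK1, ADM and VEGFA lie left of 0 in both panels of the metastases, VEGFA without passing in either. ANGPTL4, ANKRD37, NDRG1 and BNIP3 of the metastases lie between the monolayer and the subcutaneous tumours.

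PDK1 and PFKFB4 act on the fate of glucose carbon. PDK1 phosphorylates pyruvate dehydrogenase and so keeps pyruvate out of the mitochondria. Its level was 22.7, 22.2 and 23.1 in the 2D libraries, 52.8, 51.0, 44.1 and 43.8 in SQ, 17.9, 19.3 and 20.5 in FBMet and 13.6, 19.4 and 18.4 in HBMet. Every SQ library was above every other library, and every metastasis library lay below every 2D library. PDK1 was 2.56-fold lower in the metastases than in SQ (log2 -1.36, SE 0.09, limma adjusted p = 6.46e-08) and 2.06-fold higher in SQ than in 2D (adjusted p = 2.4e-06). The smaller difference between metastases and 2D, 1.24-fold lower, passed with an adjusted p of 0.0216. It no longer passed when 2D replicate 1, 2 or 3 was left out (adjusted p = 0.0647, 0.0547 and 0.0782).

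The other kinases of the family did not all follow PDK1. PDK4, which is known to respond to fasting and fatty acids, was at 86.4 ± 3.90 (SD, n = 3) in 2D, 73.2 ± 6.88 (n = 4) in SQ and 100 ± 9.96 (n = 6) in the metastases, where it was 1.36-fold higher than in SQ (limma adjusted p = 0.000334). PDK2 was also higher in the metastases than in SQ, 1.25-fold (adjusted p = 0.00865), and PDK3 was 1.26-fold lower (adjusted p = 0.0131). At 5.95 in the metastases PDK3 was the lowest of the 4 kinases there.

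PFKFB4 makes and removes fructose 2,6-bisphosphate, the signal that sets the pace of phosphofructokinase. It stood at 12.8, 14.3 and 14.02 in 2D and at 36.6, 26.9, 31.5 and 36.2 in SQ. In the metastases it was 9.26, 9.49 and 11.2 in forebrain and 11.6, 8.05 and 10.2 in hindbrain. As with PDK1, the SQ libraries stood above all others and the metastasis libraries below all 2D libraries, with no overlap. The gene was 3.07-fold lower in the metastases than in SQ (log2 -1.62, SE 0.11, limma adjusted p = 5.05e-08). In the main fit, on the scale of level plus 1, this was the largest fold of the 10 in this comparison. Over the other settings its log2 change was -1.72 to -1.55, while CA9 and ANKRD37 reached -1.80 and -1.84. PFKFB4 was 1.35-fold lower in the metastases than in 2D (adjusted p = 0.0087) and 2.28-fold higher in SQ than in 2D (adjusted p = 2.87e-06). Its relative PFKFB3, the form with the stronger kinase activity, had means of 15.7 in 2D, 28.6 in SQ and 19.6 in the metastases, and was 1.42-fold lower in the metastases than in SQ (adjusted p = 0.000968). Against 2D the pair went opposite ways, since PFKFB3 was 1.23-fold higher in the metastases (adjusted p = 0.0459). PFKFB2 was lower in the metastases than in 2D by 1.48-fold (adjusted p = 8.38e-05), and PFKFB1 was too low to test.

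CA9 is a carbonic anhydrase of the cell surface that helps to export acid, and its transcript is a common mark of hypoxic tumour cells. It was nearly absent in culture, with 2, 0 and 1 reads in the 3 monolayer libraries (levels of 0.0365, 0 and 0.0307). SQ tumours had 77, 35, 73 and 70 reads, at levels of 2.25, 1.175, 1.39 and 1.66. The metastases gave 4, 0 and 1 reads in forebrain (0.868, 0 and 0.248) and 8, 2 and 2 in hindbrain (1.045, 0.426 and 0.507). Every SQ library exceeded every metastasis library, but FBMet replicate 2, without a read, could hide a level of up to 0.598 at 3 reads. Relative to the human reads of each group, the SQ rate was 67.4 times the 2D rate (95% exact interval 22.8 to 328.9, which covers counting error only), and the metastasis rate was 24.1 times it (6.96 to 128.1). Between the tumour sites the ratio of SQ to metastases was 2.80 (1.72 to 4.88). On the scale of level plus 1, CA9 was higher in SQ than in 2D by 1.34 log2 units (limma adjusted p = 0.000211) and lower in the metastases than in SQ by 0.81 log2 units (log2 -0.81, adjusted p = 0.00303). The difference of metastases from 2D did not pass (log2 0.53, adjusted p = 0.0585), and passed in 8 of the 23 other settings that could test it. Among those settings it passed without FBMet replicate 2 (adjusted p = 0.02) and without HBMet replicate 2 (adjusted p = 0.0466). Of its family, CA2, a cytosolic form, was abundant, at 127 in 2D, 146 in SQ, 69.4 in FBMet and 129 in HBMet. CA2 was 1.85-fold higher in hindbrain than in forebrain metastases (adjusted p = 0.00193), while CA12 was too low to test, with means of 0.204 or less in every group.

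ANGPTL4 was the most abundant of the secreted members in tumours. It is a secreted inhibitor of lipoprotein lipase that also acts on vessels. The monolayer libraries held 46.3, 50.7 and 47.0, and the SQ libraries 223, 193, 253 and 244. Forebrain metastases held 109, 83.6 and 102 and hindbrain metastases 133, 96.5 and 94.8. The 3 settings did not overlap, and metastases stood between the monolayer and SQ. ANGPTL4 was 4.65-fold higher in SQ than in 2D (log2 2.22, SE 0.12, limma adjusted p = 7.91e-09), 2.11-fold higher in the metastases than in 2D (adjusted p = 4.89e-06) and 2.21-fold lower in the metastases than in SQ (adjusted p = 9.93e-07). Without SQ replicate 3, which held the highest level, the last of these was -1.09 log2 units (adjusted p = 8.25e-06) in place of -1.14. The first, SQ against 2D, was then 2.17 log2 units (limma adjusted p = 6.05e-08) in place of 2.22. Its relative ANGPTL1 was at or near 0 in every group, and ANGPTL2 was not analysed here.

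VEGFA, the main growth factor for blood vessels, passed in none of the comparisons. Its levels were 47.5, 48.1 and 49.3 in 2D, 41.7, 39.2, 52.9 and 45.5 in SQ, 47.1, 42.5 and 44 in FBMet and 46.6, 40.4 and 33.7 in HBMet. The metastases overlapped with SQ, and the change between them was -0.08 log2 units with a 95% interval of -0.27 to 0.12 (limma adjusted p = 0.495). Without SQ replicate 3 the change was 0.002. SQ differed from 2D by -0.11 log2 units (interval -0.34 to 0.12, adjusted p = 0.399), and this change was 0.006 with levels scaled to nuclear genes. All metastasis libraries lay just below all 2D libraries, but that difference of -0.19 log2 units did not pass (adjusted p = 0.137). It did so without HBMet replicate 1 (-0.25, adjusted p = 0.044). An interval that spans 0 does not show that levels were equal, but it leaves out changes as large as those of ANGPTL4. Of the related ligands, VEGFB had means of 34.5 in 2D, 35.7 in SQ and 34.9 in the metastases, VEGFC was 1.35-fold lower in the metastases than in SQ (adjusted p = 0.00266), and PGF, a placental relative, was at 2.07 ± 0.19 (SD, n = 3) in 2D against 0.372 in SQ and 0.277 in the metastases, where it had 12 reads.

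ADM was lower in both kinds of tumour than in culture. It encodes adrenomedullin, a peptide that widens vessels. The level was 8.45, 7.70 and 8.63 in 2D, 6.46, 2.91, 4.68 and 4.77 in SQ, 2.87, 3.95 and 1.64 in FBMet and 2.05, 0.703 and 1.89 in HBMet. Every tumour library was below every 2D library, and SQ and metastases overlapped through FBMet replicate 2 and SQ replicate 2. ADM was 3.06-fold lower in the metastases than in 2D (log2 -1.62, SE 0.23, limma adjusted p = 7.02e-05) and 1.84-fold lower than in SQ (adjusted p = 0.00322). These metastasis values rest on 4 to 24 reads a library. The 1.66-fold lower level in SQ than in 2D passed with an adjusted p of 0.0236, and no longer without 2D replicate 1 or 3 (0.0649 and 0.0692), without SQ replicate 2 (0.0727), with levels scaled to nuclear genes (0.0513) or with a pseudocount of 0.1 (0.0598). ADM2, which encodes the related peptide intermedin, was likewise highest in 2D, at 4.35 ± 0.10 (SD, n = 3), against 0.703 ± 0.24 (n = 4) in SQ and 0.957 ± 0.57 (n = 6) in the metastases.

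NDRG1 was the most abundant of the 10 in every group. It is a cytoplasmic protein induced by several stresses and tied to differentiation and to the response to iron loss. Its levels were 284, 309 and 294 in 2D, 793, 899, 716 and 688 in SQ, 407, 353.6 and 438 in FBMet and 490, 515 and 393 in HBMet. The 3 settings formed separate ranges, in the same order as for ANGPTL4. NDRG1 was 2.60-fold higher in SQ than in 2D (log2 1.38, SE 0.105, limma adjusted p = 1.39e-07), 1.45-fold higher in the metastases than in 2D (adjusted p = 0.000504) and 1.79-fold lower in the metastases than in SQ (adjusted p = 3.6e-06). NDRG2, a relative best known from astrocytes, had another order: 41.3 in 2D, 40.9 in SQ and 77.1 in the metastases, 1.84-fold above SQ (adjusted p = 2.24e-05). However, 66.8% of its 1378 human reads in the metastases would be expected from mouse RNA, so its level there is not that of the cancer cells alone. NDRG3 did not differ beyond the spread between metastases and SQ (adjusted p = 0.498).

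BNIP3 sits in the outer mitochondrial membrane and marks mitochondria for removal. It measured 16.5, 16.7 and 14.3 in 2D, 36.6, 30.1, 30.98 and 29.6 in SQ, 20.4, 17.9 and 19.9 in FBMet and 21.7, 22.4 and 15.5 in HBMet. The SQ libraries were above all others, and HBMet replicate 3 lay within the 2D range. BNIP3 was 1.95-fold higher in SQ than in 2D (limma adjusted p = 1.05e-05) and 1.60-fold lower in the metastases than in SQ (log2 -0.67, SE 0.10, adjusted p = 7.26e-05). The 1.22-fold higher level in the metastases than in 2D (adjusted p = 0.0446) was lost in 14 of 25 other settings. Among these were the fits without any 1 of 2D replicates 1 to 3 (adjusted p = 0.0761, 0.0704 and 0.204), SQ replicates 2 to 4 (0.0532, 0.0564 and 0.0518), FBMet replicates 1 and 3 (0.0756 and 0.0659) and HBMet replicates 1 and 2 (0.084 and 0.0852). BNIP3L, a close relative with the same task, went the other way and was 1.39-fold higher in the metastases (124 ± 30.6, SD, n = 6) than in SQ (87.3 ± 12.9, n = 4), with an adjusted p of 0.0175 and overlapping libraries.

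ANKRD37, a small ankyrin repeat protein, is known mainly as a target of HIF1A. It held 4.19, 4.74 and 4.21 in 2D, 33.2, 15, 63.5 and 35.0 in SQ, 16.4, 10.35 and 7.42 in FBMet and 21.2, 9.37 and 6.78 in HBMet. All tumour libraries exceeded the monolayer, but SQ replicate 2 lay within the metastasis range. The gene was 6.25-fold higher in SQ than in 2D (log2 2.64, SE 0.44, limma adjusted p = 0.000335) and 2.80-fold lower in the metastases than in SQ (adjusted p = 0.00578). With voom weights on the recovered reads the latter did not pass (log2 -1.51, adjusted p = 0.122), and without SQ replicate 3 it was -1.17 (adjusted p = 0.0158). The difference of SQ from 2D without SQ replicate 3 was 2.33 log2 units (limma adjusted p = 0.000482). Against 2D the metastases were 2.23-fold higher (adjusted p = 0.0382), and 10 of 25 other settings lost this call. Those included leaving out 2D replicate 1, 2 or 3 (adjusted p = 0.108, 0.0888 and 0.108), FBMet replicate 1 or 2 (0.0683 and 0.0587) or HBMet replicate 1 (0.0543). Replicate 1 was the highest metastasis library of both regions for ANKRD37, ANGPTL4, CA9 and VEGFA, but the lowest of both for PDK1. For the other members it was neither the highest in both regions nor the lowest in both.

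EGLN3 encodes PHD3, the oxygen-dependent hydroxylase that HIF itself induces. It was low throughout, at 0.976, 0.791 and 0.581 in 2D, 1.24, 1.32, 0.987 and 1.31 in SQ, 1.71, 2.51 and 3.13 in FBMet and 2.06, 3.01 and 0.399 in HBMet. In 5 of the 6 metastasis libraries it was above every SQ library, while HBMet replicate 3, with 1 read, was below every other library. The other metastasis libraries had 5 to 10 reads. EGLN3 was higher in the metastases than in 2D by 1.67-fold (limma adjusted p = 0.0323), and 9 of 24 other settings lost this call, among them the fits without 2D replicate 1, 2 or 3 (0.058, 0.0851 and 0.123), FBMet replicate 3 (0.0578) and HBMet replicate 1 or 2 (0.0605 and 0.0556). The difference from SQ did not pass (log2 0.42, interval -0.08 to 0.93, adjusted p = 0.152), although it did without HBMet replicate 3 (0.64, adjusted p = 0.00287). SQ against 2D did not pass either (log2 0.32, adjusted p = 0.366), with libraries that did not overlap, and passed when only these groups were fitted (adjusted p = 0.0262).

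Among the transcripts of the oxygen sensors and factors themselves, HIF1A was at 280 ± 9.03 (SD, n = 3) in 2D, 199 ± 19.5 (n = 4) in SQ and 456 ± 68.3 (n = 6) in the metastases, without overlap. It was lowest in SQ, where 7 of the members were highest: 2.27-fold lower in SQ than in the metastases (limma adjusted p = 2.7e-07) and 1.41-fold lower than in 2D (adjusted p = 0.00185). EPAS1, which encodes HIF2 alpha, showed the same low point, at 24.2 ± 0.71 in 2D, 5.77 ± 0.95 in SQ and 22.5 ± 11.8 in the metastases (3.18-fold above SQ, adjusted p = 0.000132). CITED2, a feedback inhibitor that competes with HIF for its coactivators, was highest in SQ, with 62.6 ± 0.57 in 2D, 154 ± 21.3 in SQ and 61.7 ± 12.2 in the metastases (2.49-fold below SQ, adjusted p = 1.82e-07). EGLN2 was 1.47-fold lower in the metastases than in SQ (adjusted p = 0.0135), and VHL was 1.21-fold higher (adjusted p = 0.00131). EGLN1, the main hydroxylase of most cells, had means of 15.01 in 2D, 16.5 in SQ and 17.9 in the metastases and did not pass between the last pair (adjusted p = 0.296). ARNT2, a partner of the alpha subunits that is typical of neurons, was at 0.406 in 2D, 1.37 in SQ (adjusted p = 0.0174 against 2D) and 6.63 ± 5.52 in the metastases, where HBMet exceeded FBMet 2.73-fold (adjusted p = 0.00942). Of 12 such regulators 11 could be tested, HIF3A being at or near 0. Among these, 5 were higher and 2 lower in the metastases than in SQ, where 31.2% and 18.8% of all genes were, and 4 were higher and 4 lower in SQ than in 2D, where 21.5% and 30.9% were.

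Further genes of the hypoxia response were taken from lists chosen for this purpose. Of 26 other hypoxia-induced genes 20 were tested, and 10 were lower and 6 higher in the metastases than in SQ, with a median of -0.19. Over all genes tested, 18.8% were lower and 31.2% higher there, with a median of 0.055. The lower ones included FAM162A, a mitochondrial protein (1.64-fold, limma adjusted p = 2.26e-06), P4HA2, a collagen prolyl hydroxylase (1.62-fold), STC1, a secreted glycoprotein (1.60-fold), and KDM3A, a histone demethylase (173 ± 10.2 in SQ, n = 4, and 109 ± 11.6 in the metastases, n = 6, 1.59-fold). The higher ones were led by IGFBP3, which binds insulin-like growth factors and was 3.37-fold higher in the metastases (112 ± 26.5 against 31.7 ± 1.46, adjusted p = 2.76e-07), and by STC2 (1.71-fold). In SQ against 2D, 9 of the 20 were higher and 6 lower, with a median of 0.004. Over all genes tested, 21.5% were higher and 30.9% lower in that comparison, with a median of -0.054. TMEM45A had 11.6 ± 0.43 in 2D and 46.0 ± 4.98 in SQ, whereas STC2 had 130 ± 2.65 and 31.9 ± 8.20. In the metastases against 2D, 1 of the 20 was higher and 6 were lower, with a median of -0.064. Over all genes tested, 21.9% were higher and 21.0% lower there, with a median of 0.007. LOX, CA12, PPP1R3C, CXCR4 and MIR210HG were too low to test, with a mean of 0.204 or less in each of these groups.

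All 19 genes of glucose uptake and glycolysis were tested, and 10 were lower and 3 higher in the metastases than in SQ (median -0.17). In SQ, 11 were higher and 2 lower than in 2D (median 0.23). Over all genes tested, 18.8% were lower and 31.2% higher in the first comparison (median 0.055). In the second, 21.5% were higher and 30.9% lower (median -0.054). The glucose transporter SLC2A1 was the exception with the greatest size. It was at 231 ± 6.81 (SD, n = 3) in 2D, 86.8 ± 5.02 (n = 4) in SQ and 228 ± 56.1 (n = 6) in the metastases, 2.55-fold above SQ (limma adjusted p = 7.07e-09). ALDOC, an aldolase, was 3.18-fold lower in the metastases than in SQ (adjusted p = 5.1e-08) and did not pass between SQ and 2D (adjusted p = 0.587). LDHA, which reduces pyruvate to lactate, was 1.54-fold higher than in 2D both in SQ (adjusted p = 2.99e-06) and in the metastases (adjusted p = 2.2e-06), and SQ and metastases did not differ beyond their spread (log2 0.002, adjusted p = 0.976). Against 2D, 7 of the 19 were higher and 3 lower in the metastases, where 21.9% and 21.0% of all genes were.

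**Figure D3:**
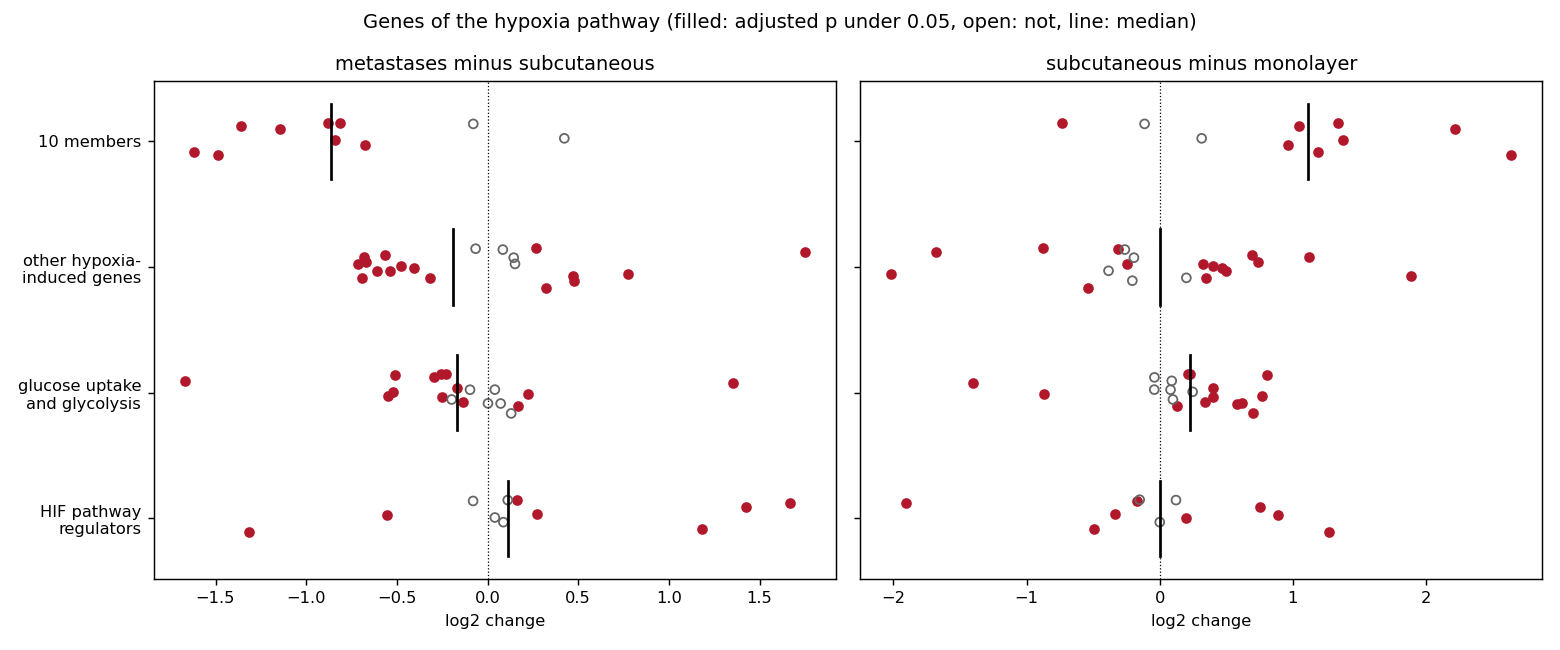
Log2 changes (horizontal axis, level plus 1) of single genes in 4 lists, for metastases minus subcutaneous tumours and for subcutaneous tumours minus monolayer; filled points passed limma at an adjusted p under 0.05 and vertical lines are list medians. The 10 members have medians of -0.86 and 1.12 (-0.88 and 1.04 without CA9), while the HIF regulators have medians of 0.111 and 0.001.

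No member differed detectably between forebrain and hindbrain metastases. None of the 10 passed limma (adjusted p from 0.237 for ADM to 0.981 for ANKRD37), where 3.30% of all human genes did (1.45% higher and 1.85% lower in hindbrain). Of these 43.9% were higher, or 54.1% with median-of-ratios scaling. Before adjustment 1 member passed, ADM, at 1.55 ± 0.74 in HBMet and 2.82 ± 1.16 in FBMet (SD, n = 3 each) with overlapping libraries. Its unadjusted p from limma was 0.0464, and with voom no member passed after adjustment. The interval was -0.997 to 1.07 log2 units for ANKRD37 and -0.02 to 0.46 for NDRG1. In the order of mean levels forebrain and hindbrain metastases were neighbours for all 10 genes, and these neighbours did not differ beyond their spread. SQ came first for 7 of them, followed by HBMet, FBMet and 2D for CA9, ANGPTL4, ANKRD37, NDRG1 and BNIP3, and by 2D, FBMet and HBMet for PDK1 and PFKFB4.

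As a description of how alike the genes were, each member's log2 levels over the 13 libraries were correlated with the mean of all 10 after standardization. The coefficient was 0.95 for BNIP3, 0.90 for ANKRD37, 0.89 for ANGPTL4, 0.88 for PFKFB4, 0.87 for NDRG1 and CA9 and 0.83 for PDK1, but 0.24 for VEGFA, 0.14 for ADM and 0.06 for EGLN3. Each member is part of that mean, and the libraries fall into groups of unlike depth. Among the genes outside the 10 with the highest coefficients were KDM3A (0.97), SEC13 (0.97), VGLL4 (0.96), FBXO2 (0.96) and MYDGF (0.96). KDM3A is on the list of hypoxia-induced genes.

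**Figure D4:**
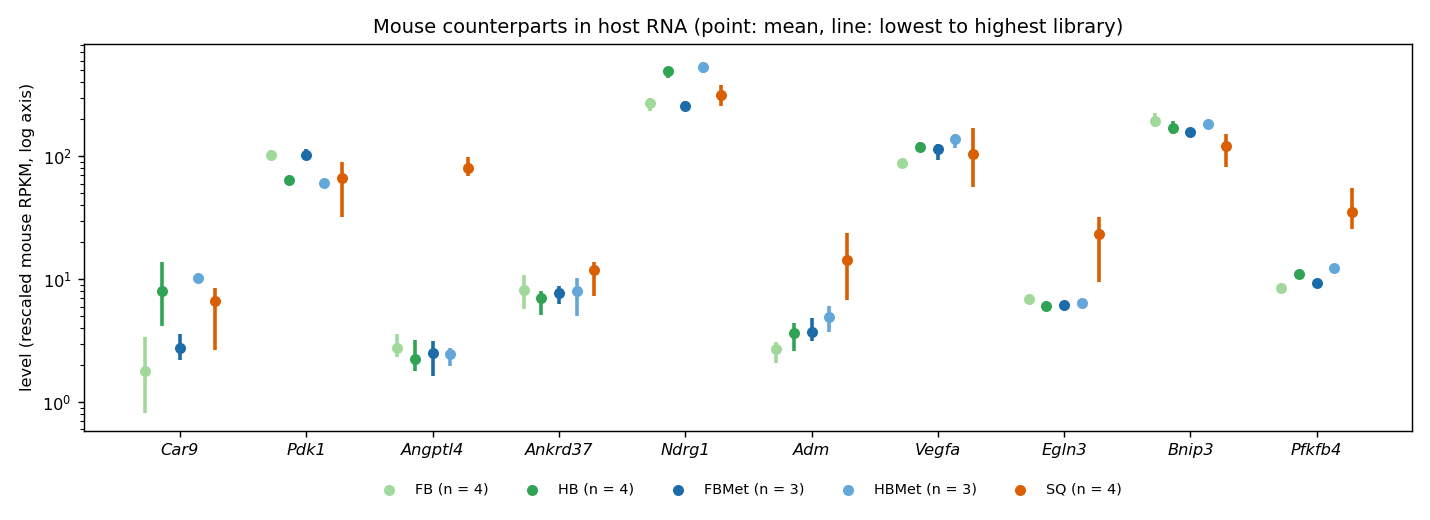
Mean level of the mouse counterpart of each gene (rescaled mouse RPKM, log axis) in tumour-free brain, tumour-bearing brain and subcutaneous tumours, with lines from the lowest to the highest library. Angptl4, Pfkfb4, Egln3 and Adm are highest in the stroma of subcutaneous tumours, and Ndrg1 is higher in hindbrain than in forebrain with or without tumours.

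The mouse counterparts show how much host RNA of the same genes surrounded the cancer cells, and are given as levels without a test. Angptl4 was at 79.8 ± 13.7 (SD, n = 4) in the stroma of SQ tumours and at 2.23 to 2.74 as means of the brain groups. Pfkfb4 was at 35.0 ± 13.4 there and at 8.51 to 12.2 in brain, Egln3 at 23.2 ± 10.8 and 6.06 to 6.905, and Adm at 14.4 ± 7.22 and 2.68 to 4.93. The SQ ranges of these 4 genes lay above those of all brain groups. So did the SQ ranges of Pecam1, Cdh5 and Nrp1, but not those of Cldn5 and Flt1. The share of all mouse genes with such a separation was not counted, so it cannot be read as particular to these 4. Other counterparts did not share this order. Bnip3 had its lowest mean in SQ, at 120 ± 28.8, against 156.5 to 193 as means of the brain groups. Pdk1 was at 66.1 in SQ, 103 in FB and FBMet, 64.6 in HB and 60.1 in HBMet. Car9 was at 6.62 in SQ, 1.79 in FB, 2.78 in FBMet, 8.01 in HB and 10.2 in HBMet. Ankrd37 was at 11.9 in SQ and 7.09 to 8.24 in brain, with overlapping ranges. Ndrg1, which oligodendrocytes express, was at 269 in FB and 258 in FBMet, and at 490 in HB and 530 in HBMet. Vegfa was at 87.6 ± 2.22 in FB and 115 ± 18.8 (n = 3) in FBMet, ranges that did not overlap, and at 119 ± 8.98 in HB and 138.5 in HBMet, ranges that did. Of its receptors, Kdr was at 24.4 in SQ stroma and 6.32 in FBMet, Nrp1 at 51.7 and 9.47 and Nrp2 at 44.4 and 12.8, while Flt1 was at 45.1 and 47.6. In HBMet these 4 were at 5.36, 8.08, 9.32 and 45.6. The adrenomedullin receptor Calcrl and its partner Ramp2 were at 10.4 and 33.6 in SQ stroma, 2.89 and 16.2 in FBMet and 5.22 and 21.9 in HBMet. Ramp3, another partner, was at 6.12 in SQ, 7.55 in FBMet, 6.36 in HBMet and 17.5 in FB. Of the vessel markers, Pecam1 was at 66.4 in SQ and 11.7 in FBMet and Cdh5 at 86.1 and 10.7, whereas Cldn5 was at 11.01 and 18.6. Of the fat markers, Adipoq was at 21.4 ± 18.3 and Plin1 at 8.74 ± 8.03 in SQ (SD, n = 4), and both had means under 0.07 in every brain group. The part of vessel and fat cells in these host levels was not tested.

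Several members share exonic bases with another annotated gene on GRCh38, and reads there could belong to either. CA9 (chromosome 9, 35673928 to 35681159, plus strand) shares 571 of its 1598 exonic bases with ARHGEF39 on the other strand. ANKRD37 (chromosome 4, 185396021 to 185400628, plus strand) shares 909 of 2253 with UFSP2, also on the other strand. PDK1 (chromosome 2, 172555373 to 172608669, plus strand) shares 445 of 14845 with PDK1-AS1, and PFKFB4 (chromosome 3, 48517684 to 48562015, minus strand) shares 298 of 6107 with UCN2 on the same strand. NDRG1 (chromosome 8, 133237175 to 133302022, minus strand) and VEGFA (chromosome 6, 43770184 to 43786487, plus strand) overlap a non-coding gene each, by 753 and 188 bases. ANGPTL4, ADM, EGLN3 and BNIP3 share none, though BNIP3 has processed pseudogenes whose reads may have been split from it. Whether reads were counted by strand is not given in the sources used here, so a gene and its partner on the other strand cannot be told apart.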

How the data were processed

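Total RNA of 21 libraries was extracted with a kit for lipid-rich tissue, per the labels. The authors deposited RPKM for human and for mouse genes, and per the submitters' processing notes the builds were hg38 and mm10. Which aligner and counter made them is not given in the sources used here. RPKM was rescaled to a sum of 1000000 per library within each organism. Reads were recovered from the steps of the deposited RPKM, which were whole within 0.02 reads for all 33975 human genes above 0, and gave depths and read counts. Intervals and limits at 3 reads cover counting error only.

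Groups were compared with limma (moderated, trend, robust) on log2(level + 1), two-sided, in 1 fit of 13 libraries over 14557 genes with a level of at least 1 in at least 3 libraries, without a block. P-values were adjusted by Benjamini and Hochberg over all genes of a comparison, and the threshold was 0.05. The fit was tested on simulated data. Alternatives were 3 other scalings, a pseudocount of 0.1, 2 other filters, voom on recovered reads, fits of the groups compared alone, library weights, the replicate block, averaged metastases, subtraction of the human reads that mouse RNA would give, and leave-one-out fits.

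The members and lists were chosen with earlier results of these data known. Named by rule were the 10 members, all regulators, relatives of members, at most 4 called changes of greatest size in each list and comparison, and the 6 genes most like the members' mean among those with a mean level of at least 5. LDHA, PFKFB1 and the genes too low to test were added after their values were seen. Replicate numbers were not taken as pairs, since the labels do not state a pairing. Between forebrain and hindbrain metastases, same-number correlations of residuals (0.0441 to 0.0662) were low but above those of other numbers (-0.0555 to 0.0107). Whether such libraries came from 1 animal is not given, so the 6 metastasis libraries may not be independent. Some genes of the lists are not reported here. No batch is given in the labels. R 4.3.3, limma 3.58.1, version 1.17.8 of data.table, Python 3.11.15, NumPy 2.4.6, pandas 2.3.3, matplotlib 3.10.9 and GENCODE 44 were used.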

Additional observations from a re-analysis of the deposited data

How the results depend on the processing

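Of 970 results for single members under 25 other settings, 898 kept their direction and their side of the threshold, 44 fell short of it, 13 newly passed it and 15 changed sign. Changes of sign were confined to changes that had not passed. VEGFA reached 0.002 in metastases against SQ when libraries were left out, from -0.139, and 0.006 in SQ against 2D with scaling to nuclear genes. Between hindbrain and forebrain, PFKFB4 was 0.006 with median-of-ratios scaling and with library weights, 0.010 with quantile normalization and 0.030 with voom. Leaving out libraries there gave -0.121 to 0.120 for PFKFB4, -0.072 to 0.177 for BNIP3, -0.399 to 0.356 for ANKRD37, -0.032 to 0.211 for ANGPTL4 and -0.717 to 0.044 for EGLN3.

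The 8 members lower in metastases than in SQ were 7 with voom, without ANKRD37, and 7 under the stricter filter, which could not test CA9 or EGLN3. EGLN3 made 1 member higher there with voom and with averaged metastases, and 0 to 1 with libraries left out. Members higher in metastases than in 2D numbered 2 without a filter, 3 with only the groups compared and 2 to 5 with libraries left out. EGLN3 raised the members higher in SQ than in 2D from 7 to 8 with only the groups compared. ADM made the count of members lower in SQ than in 2D 0 with scaling to nuclear genes, with a pseudocount of 0.1 and without a filter, and 0 to 1 with libraries left out. Human genes called between hindbrain and forebrain, 481, were 204 without a filter, 100 with voom, 39 with only the groups compared, 58 with library weights, 295 with the replicate block and 263 to 735 with libraries left out, and no member passed in any of these.

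With the replicate block, metastases against SQ gave 6049 human genes in place of 7276, metastases against 2D 5912 in place of 6247, and SQ against 2D 6661 in place of 7635. CA9 then passed (adjusted p = 0.0399) and ANKRD37 did not (0.0516) in metastases against 2D, and no other member changed its call. Same-number correlations of residuals were 0.0441 to 0.0662 between forebrain and hindbrain metastases, against -0.0555 to 0.0107 for other numbers. Scaling moved the share of higher among called genes: in metastases against SQ it was 62.4%, but 49.5% with median-of-ratios scaling, 48.2% with nuclear genes, 50.9% with quantile normalization and 51.7% without a filter. In SQ against 2D it was 41.1%, or 55.8% with nuclear genes, where the median of all genes went from -0.054 to 0.056, and between regions 43.9% or 54.1% with median-of-ratios scaling. The cause of these changes was not tested. Low human depth in metastases limits CA9, EGLN3 and ADM most.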
